A study of Mus musculus with 2 samples.

Results

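Late proximal tubule (PT) cells, the S3 segment, were picked out of single-cell RNA sequencing of MRL-lpr mouse kidney by marker UMIs (unique molecular identifiers, each standing for 1 captured mRNA molecule). Of 27698 barcodes, 3114 were S3 cells, 2007 in the young and 1107 in the old library. A barcode was taken when it had at least 5000 UMIs, at most 20% mitochondrial UMIs and UMIs of at least 3 of the 5 PT genes *Lrp2*, *Slc34a1*, *Cubn*, *Slc22a6* and *Slc27a2*. It also had to lack UMIs of *Ptprc* (the leukocyte antigen CD45) and of the injury genes *Vcam1* and *Havcr1*, and to have UMIs of at most 1 of the 4 cell cycle genes *Mki67*, *Top2a*, *Birc5* and *Cdk1*. Its UMIs of the S3 markers *Slc7a13*, *Slc22a30* and *Atp11a* had to reach 3 and to exceed those of the early PT markers *Slc5a2* and *Slc5a12*. Early PT cells were taken by the mirrored rule and served as the reference segment. Both groups of mice carry the *Fas* lpr mutation of the MRL-lpr strain, which develops lupus-like kidney disease with age, and they differ in age, which the labels give only as young and old. Each age is 1 library of kidneys pooled from several mice, untreated as far as the labels say, so no mouse can be told from another and no difference below has a replicate check or a test. Before loading on the 10x 3′ kit, the suspension went through gradient separation, magnetic enrichment of innate lymphoid cells and sorting of live cells, so a share of cells is not a frequency in the kidney.

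The proximal tubule reclaims most of the filtered glucose, amino acids, phosphate and protein. Its early S1 and S2 segments carry the high-capacity transporters, while S3, the straight part that runs into the outer medulla, carries high-affinity transporters, secretes organic anions and detoxifies. S3 relies heavily on oxidative metabolism and is known as the segment most easily hurt by poor blood supply, and in mice it differs strongly between males and females under androgen control.

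S3 cells were deeply sequenced, with 46134134 UMIs in the young and 25794585 in the old library, and medians per cell of 19412 and 19853 UMIs. They made up 41.4% of the young PT cells that passed every other step of the rule (exact Clopper-Pearson 95% interval 40.02–42.8%) and 40.7% (38.8–42.6%) of the old ones. All intervals given here cover counting error only. The methods of the study name female mice as the default, but Y-linked UMIs (from *Uty*, *Kdm5d*, *Eif2s3y* or *Ddx3y*) with no UMI of *Xist*, the RNA of the inactive X chromosome, occurred in 76.3% of young and 70.6% of old S3 cells. Cells with *Xist* and no Y-linked UMI made up 1.74% and 2.53% of S3 cells, against 17.2% and 23.2% of early PT cells. Among early PT cells, whose rule asked the S3 markers to stay below the early ones, *Slc7a13*, *Slc22a30* and *Atp11a* were themselves higher in Y-linked-only than in *Xist*-only cells, with log2 ratios of 1.93, 2.64 and 1.34 in the young library and 3.66, 2.84 and 1.34 in the old, a description since these UMIs chose the cells. PT cells of neither segment leaned the other way, with 192 young and 150 old *Xist*-only cells against 107 and 93 Y-linked-only ones. Of PT cells with 2 marker UMIs, just outside the rule, 40.9% of young and 26.3% of old ones were *Xist*-only. Y-linked-only cells made up 18.2% and 40.4% of them. Most S3 cells taken by the rule thus carried Y-linked reads, and whether the rule missed S3 cells with *Xist* was not tested. Results are also given within the 1532 young and 781 old S3 cells with Y-linked and no *Xist* UMIs. The libraries shared 41 barcodes, of which 9 young and 3 old ones were S3 cells, and Scrublet called 20 and 6 S3 cells doublets, which were kept.

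The rule left out cells that bore the S3 segment call but also leukocyte, injury or cell cycle UMIs. Of 2456 young and 1462 old PT cells with this segment call, 449 (18.3%) and 355 (24.3%) were left out. *Havcr1* (KIM-1, a marker of tubular injury) had UMIs in 201 young (8.18%) and 110 old cells (7.52%) with the S3 call, against 24 (0.929%) and 40 (2.75%) of those with the early call. Among cells with the S3 call, 179 young and 210 old ones held *Ptprc* UMIs. S3 cells with *Havcr1* or *Vcam1* UMIs are thus not described here.

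The cells were selected on the UMIs of 3 S3 markers, whose values are given as a description. *Slc7a13*, the S3 cystine and aspartate transporter, stood at 612 and 444 CPM (counts per 1000000 UMIs of the summed S3 cells) in the young and old S3 cells and at 30.9 and 33.9 CPM in early PT cells. *Slc22a30*, an organic anion transporter family member, stood at 257 and 156 CPM against 148 and 96.96 CPM, and *Atp11a*, a phospholipid flippase, at 359 and 225 CPM against 59.9 and 57.5 CPM. *Slc7a13* separated the segments by the widest margin and *Slc22a30* by the narrowest. All 3 markers had a UMI in 1644 young (81.9%) and 800 old (72.3%) S3 cells, and *Slc7a13* was the most abundant of the 3 in 1273 and 721 cells. The median cell held 22 marker UMIs in the young and 14 in the old library. After thinning each cell to 5000 UMIs, *Slc7a13* was seen in 83.1% of young and 78.4% of old S3 cells and in 4.93% and 1.88% of leukocyte-marked barcodes, which should lack it. Cells at the edge were few: 51 young and 56 old S3 cells had exactly 3 marker UMIs, and 66 and 57 PT cells with 2 fell just outside.

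The rule also used the levels of PT and early markers, which are therefore a description and no check of the label. *Lrp2* (megalin, the receptor for filtered protein) stood at 753 and 571 CPM and *Slc34a1* (the sodium phosphate cotransporter) at 3575 and 2659.6 CPM in S3 cells. The early markers *Slc5a2* (SGLT2) and *Slc5a12* (a lactate transporter) were at 114 and 74.05 CPM and 43.01 and 34.3 CPM in S3 cells, against 715 and 452 CPM and 506 and 445 CPM in early PT cells. The label was checked against genes outside the rule, those of S3 and of S1 and S2 (given with the segment comparison) and those of other cells. Markers of other cells were low, as sums over each list: those of stroma stood at 0.0867 and 0 CPM in young and old S3 cells, of podocytes at 2.103 and 0.271, of endothelium at 11.6 and 0.504, of collecting duct at 33.8 and 21.7 and of the loop and distal tubule at 13.2 and 51.8. Leukocyte markers stood at 2.71 and 13.1 CPM for T and NK cells, 3.66 and 2.29 for ILC2s, 10.4 and 14.5 for macrophages and monocytes and 2.15 and 4.497 for neutrophils. In leukocyte-marked barcodes the T and NK cell markers summed to 1363 and 4693 CPM. The exceptions were erythrocyte markers, at 159 CPM in young S3 cells, and B and plasma cell markers, at 1038 CPM in old ones, and both rested mainly on 1 cell, as given with those genes. The plot of segment genes shows these levels.

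**Figure D1:**
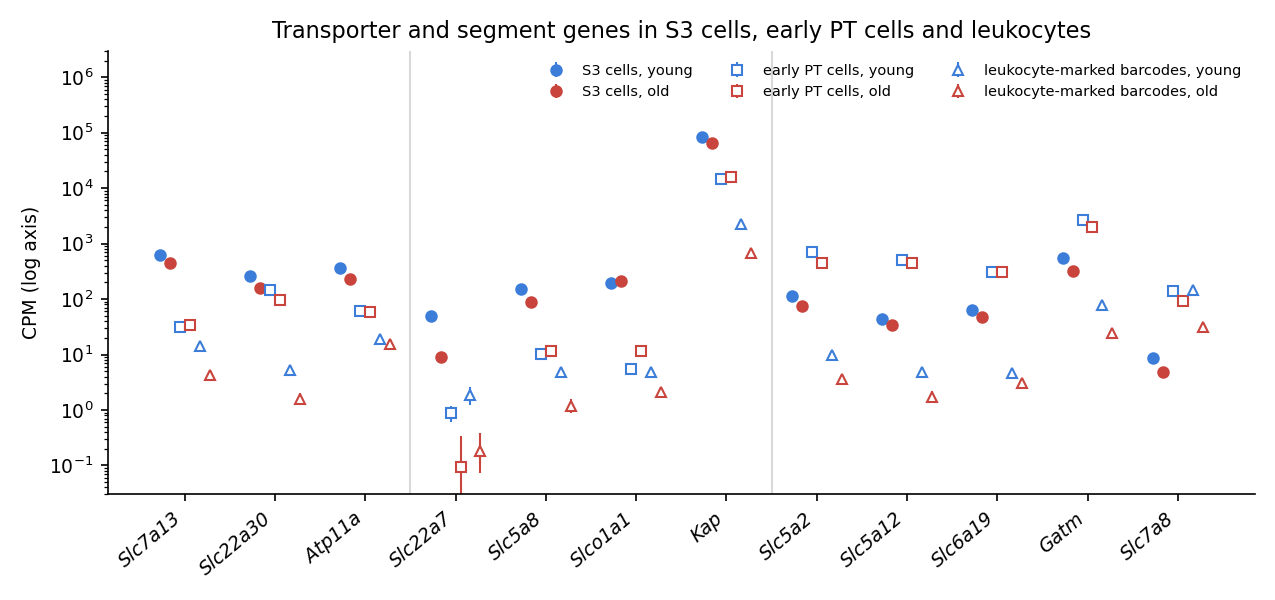
CPM (log axis) of the S3 markers of the rule (left), further S3 genes (middle) and early PT genes (right) in S3 cells, early PT cells and leukocyte-marked barcodes of the young and old libraries, with exact Poisson 95% intervals as bars. *Kap* stands highest, at 84154 and 64393 CPM in young and old S3 cells, and the S3 genes in the middle lie above their early PT levels in both libraries.

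Genes with the widest gaps between S3 and early PT cells included single transporters, enzymes and Iroquois factors. Of 10384 genes with at least 100 UMIs over both segments in each library, 185 (1.78%) were at least 2-fold higher and 519 (5.0%) at least 2-fold lower in S3 cells in both libraries. The rule genes were left out of this comparison, and genes linked to them cannot be called independent of it. The median gene had a log2 ratio of S3 over early PT cells of −0.19 in the young and −0.21 in the old library, and ratios below are to be read against it. The most abundant of the S3 mRNAs of the lists was *Kap*, the androgen-regulated kidney protein, at 84154 and 64393 CPM of S3 cells against 14432 and 16127 CPM of early PT cells. Within cells with Y-linked and no *Xist* UMIs, 143 of the 185 higher and 294 of the 519 lower genes were again past 2-fold in both libraries. All 24 genes named in the next paragraphs stayed past 2-fold there.

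Of the 12 leading higher genes *Slc22a7* and *Slco1a1* encode transporters. *Slc22a7* (OAT2, an organic anion transporter) stood at 49.9 CPM (47.9–52.02) in young and 9.15 CPM (8.02–10.4) in old S3 cells, against 0.865 CPM (0.606–1.198) and 0.0953 CPM (0.0115–0.344) in early PT cells (exact Poisson 95% intervals). The log2 ratios of S3 over early PT cells, with exact binomial 95% intervals, were 5.85 (5.38 to 6.37) for young and 6.58 (4.72 to 9.64) for old mice. S3 cells lay above early PT cells in both libraries, although old S3 cells held fewer than young ones. *Slco1a1*, an organic anion transporter known to be higher in males, stood at 192 and 209 CPM in S3 and 5.48 and 11.7 CPM in early PT cells, with log2 ratios of 5.13 and 4.16. Its UMIs were spread widely, over 1140 of the 2007 S3 cells in the young library and 903 of the 1107 in the old. *Slc22a7* was seen in fewer cells, 312 young and 79 old.

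Enzymes of the brush border, steroids and drugs formed the next group. *Mep1b*, the beta subunit of the brush border protease meprin, stood at 90.6 and 15.2 CPM in S3 and 1.63 and 0.143 CPM in early PT cells (log2 5.79 (5.45 to 6.16) and 6.74 (5.18 to 9.02)). *Hsd17b2*, which inactivates estradiol and testosterone, was lower in level, at 4.42 and 4.23 CPM against 0.2404 and 0.143 CPM. *Ugt2b37*, a glucuronosyltransferase, stood at 215 and 124 CPM against 16.1 and 8.96 CPM, and *Cyp2d9*, a male-type steroid hydroxylase, at 15.5 and 34.9 CPM against 0.769 and 1.91 CPM. Their log2 ratios lay between 3.74 and 4.88. *Ugt2b37* and *Cyp2d9* belong to families of near-identical copies, so reads may be split among relatives.

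Transcription factors, secreted proteins and noncoding transcripts made up the rest of the 12 leading genes. *Irx1*, an Iroquois homeobox factor that patterns the nephron, stood at 23.97 and 8.26 CPM in S3 and 0.601 and 0.143 CPM in early PT cells (log2 5.32 (4.75 to 5.95) and 5.85 (4.28 to 8.14)). *Irx5*, its relative, had log2 ratios of 4.21 and 3.81. *Ccl28*, a mucosal chemokine, stood at 8.69 and 52.5 CPM against 0.337 and 1.95 CPM, and was the one of the 12 that was several-fold higher in old than in young S3 cells. *C8a*, a chain of complement component 8, stood at 2.43 and 3.799 CPM in S3 cells and had no UMI in young early PT cells, which allows up to 0.0721 CPM. It was therefore at least 33.7-fold higher in young S3 cells. The uncharacterized transcripts *Gm15348* and *Gm47985* stood at 13.01 and 5.54 CPM and 7.69 and 4.57 CPM, and *Gm15348* (chr8:12706944-12719127) lies beside the marker gene *Atp11a* on chromosome 8.

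**Figure D2:**
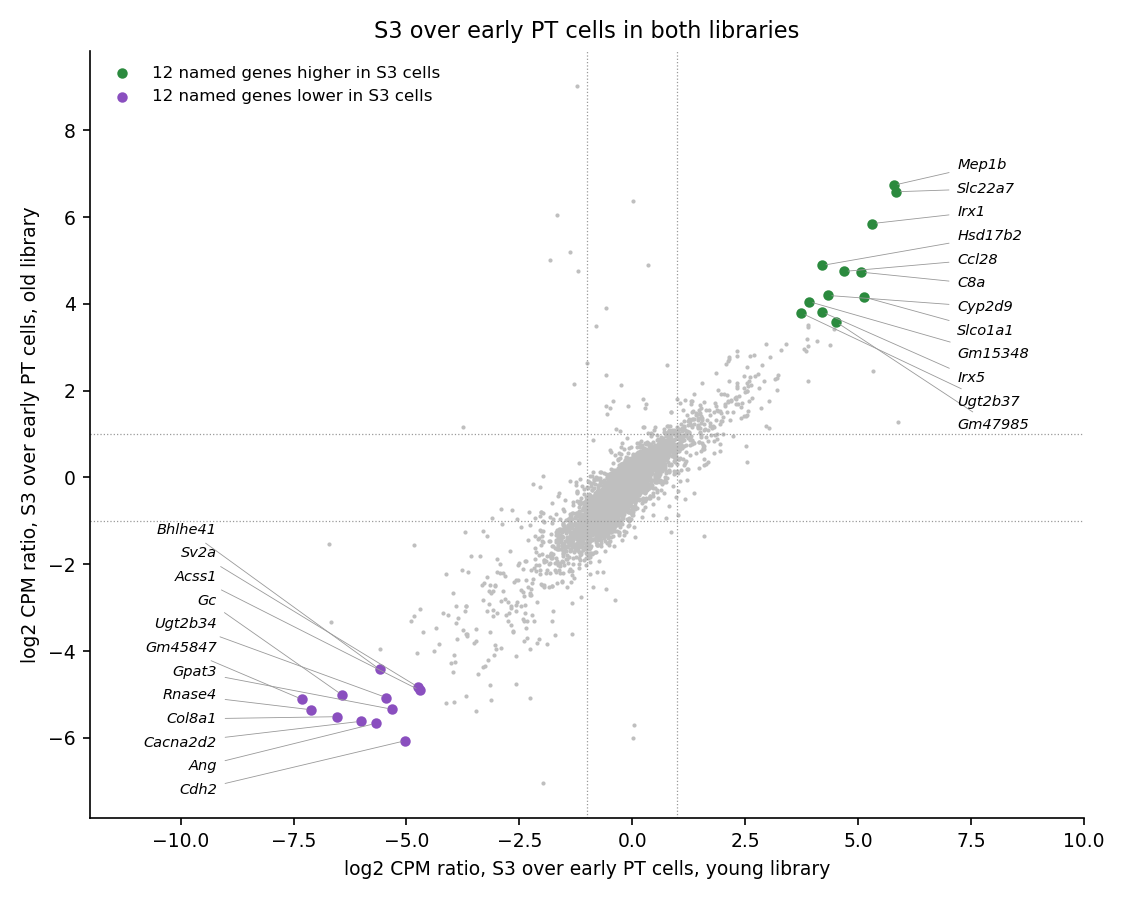
Log2 CPM ratio of S3 over early PT cells in the young (x axis) and old library (y axis), 1 point per gene compared, rule genes left out, with dotted lines at 2-fold. The 12 named genes at each end are labelled and lie past 2-fold in both libraries.

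The lower end held genes of early segments. *Rnase4*, a secreted ribonuclease, stood at 1.496 and 7.29 CPM in S3 and 207 and 298 CPM in early PT cells, and *Ang* (angiogenin), at 0.672 and 1.09 CPM against 34.5 and 55.2 CPM. The genes overlap (chr14:51091077-51106151 and chr14:51091150-51102009), so their reads may not be independent. *Gc*, the vitamin D binding protein, stood at 0.585 and 1.05 CPM against 50.2 and 33.8 CPM, and *Acss1*, the mitochondrial acetyl-CoA synthetase, at 4.097 and 2.99 CPM against 107 and 89.4 CPM. *Ugt2b34*, a relative of *Ugt2b37*, was at 0.932 and 0.853 CPM in S3 and 40.6 and 28.7 CPM in early PT cells, the opposite order within one enzyme family. *Cdh2* (N-cadherin), *Col8a1* (a short-chain collagen), *Cacna2d2* (a calcium channel subunit), *Gpat3* (glycerolipid synthesis), *Bhlhe41* (a clock repressor), *Sv2a* (a vesicle protein) and *Gm45847* completed the 12. Each of these was at 0.582 CPM or less in S3 cells of either library, with log2 ratios from −7.31 to −4.42.

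The list of 15 further S3 genes behaved in parts. Of 12 with enough UMIs, 6 were at least 2-fold higher in S3 cells in both libraries and none lower, and the medians were 2.06 and 1.196, against −0.19 and −0.21 for all genes. *Slc5a8* (lactate and short-chain fatty acid uptake) stood at 150 and 88 CPM against 10.4 and 11.7 CPM, *Slc5a10* (a mannose and fructose transporter) at 159 and 93.8 CPM against 23.1 and 18.1 CPM, and *Slc6a18* (a neutral amino acid transporter) at 142 and 135 CPM against 38.3 and 33.3 CPM. *Slc5a1* (SGLT1, the high-affinity glucose transporter) had 36.5 and 28.1 CPM against 6.35 and 10.4 CPM. *Slc7a12*, a relative of *Slc7a13*, completed the 6 with *Slc22a7*. *Acy3* and *Ggt1*, enzymes of mercapturate and glutathione handling, were the most abundant of the list, at 2600.5 and 3005 CPM and 1101 and 1003 CPM, with log2 ratios of 1.13 and 0.96 and of 1.09 and 0.89. *Slc1a1* (a glutamate transporter) and *Slc16a9* (a carnitine exporter) did not separate the segments, with ratios from −0.24 to 0.09.

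Of the 12 genes of S1 and S2, 9 were at least 2-fold lower in S3 cells in both libraries and none higher, with medians of −1.42 and −1.22. *Slc6a19* (B0AT1, the main neutral amino acid transporter) stood at 63.4 and 47.9 CPM against 305 and 311 CPM, *Slc7a8* (LAT2) at 8.8 and 4.85 CPM against 141 and 94.1 CPM, and *Gatm* (creatine synthesis) at 546 and 322 CPM against 2632 and 2029.8 CPM. *Slc2a2* (GLUT2), *Slc4a4* (the bicarbonate exit transporter), *G6pc* (glucose release) and *Prodh2* (hydroxyproline breakdown) had log2 ratios between −1.47 and −1.03. *Slc22a12* (URAT1, the urate transporter) went the other way, at 579 and 553 CPM against 300.5 and 348 CPM (log2 0.95 and 0.67). Protein uptake genes had medians of −0.64 and −0.62, with 0 of 6 past 2-fold in both libraries. Of 12 nephron transcription factors, *Pax2* (log2 −1.69 and −1.49) and *Maf* (−1.22 and −1.22) were at least 2-fold lower, while *Hnf4a*, a central factor of PT identity, stood at 214 and 236 CPM in S3 and 224 and 285 CPM in early PT cells.

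Metabolic lists differed less between the segments. Of 18 genes of fatty acid oxidation and peroxisomes, 0 were at least 2-fold higher in both libraries and 1, *Ppargc1a* (the coactivator of mitochondrial genes), was lower, at 35.9 and 35.7 CPM against 83.6 and 86.1 CPM. *Acadm* (medium-chain acyl-CoA dehydrogenase) came closest to 2-fold, at 1050.5 and 698 CPM against 435 and 386 CPM. Of 6 gluconeogenesis and fructose genes 1 was lower, *G6pc*. Of 18 detoxification genes, *Ugt2b38* and *Cyp2e1* were higher and *Gsta2*, *Gsta4*, *Cyp2d26* and *Abcb1a* lower. Within Y-linked-only cells the calls of *Ugt2b38*, *Cyp2e1* and 2 of the lower genes were lost. Genes known as higher in male kidney were higher in S3 cells for 9 of 9 in both libraries, 5 of them at least 2-fold (*Kap*, *Cyp2e1*, *Slco1a1*, *Acsm3*, *Nudt19*), and 4 within Y-linked-only cells. *Acsm3*, a medium-chain acyl-CoA synthetase, stood at 502 and 353 CPM against 29.5 and 40.1 CPM. Of 5 compared genes listed as higher in female kidney, *Cyp2a4* (65.5 and 337 CPM against 4.42 and 30.4 CPM) and *Slc7a12* were at least 2-fold higher in S3 cells. *Cyp2a4* did not follow this listing within S3 cells, as given with the sex-linked reads. Of the compared MHC, interferon-induced, complement, immediate early and EGF family lists, 0 genes were past 2-fold between the segments in both libraries, and of 11 injury genes 1 was lower, *Spp1*, though among Y-linked-only cells 0 were lower and 3 higher.

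Between the ages, S3 cells differed most in antigen presentation and interferon-induced genes, which were low in young and abundant in old cells. Of 10791 genes with at least 100 UMIs over the S3 cells of both libraries, 277 (2.57%) were at least 2-fold higher and 211 (1.96%) at least 2-fold lower in old cells, with a median log2 ratio over all genes of −0.01. Of these, 263 and 196 were also past 2-fold among Y-linked-only S3 cells, and 187 and 86 also among early PT cells. Early PT cells come from the same libraries, so these counts are not independent of each other. When the cell with the most UMIs of each gene was left out, a choice made after the data were seen, 234 and 199 of the same genes remained past 2-fold.

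All 7 class II genes of the major histocompatibility complex (MHC), which load and show peptides to CD4 T cells, were at least 2-fold higher in old S3 cells, with a median log2 ratio of 6.35 against −0.01 for all genes. The median was 6.43 in Y-linked-only S3 cells and 5.99 in early PT cells. *Cd74*, the invariant chain, stood at 15.6 CPM (14.5–16.8) in young and 2243 CPM (2224–2261) in old S3 cells, a log2 ratio of 7.17 (7.06 to 7.28), or 144-fold. Among S3 cells, 287 young and 1032 old ones held a *Cd74* UMI. *Cd74* UMIs thus reached most old S3 cells and were not held by a few. *H2-Ab1* and *H2-Aa*, the chains of the I-A molecule, stood at 4.704 and 551 CPM and at 3.01 and 399 CPM in young and old S3 cells. *Ciita*, the master switch of class II genes, stood at 0.477 and 14.8 CPM (31.1-fold). In leukocyte-marked barcodes of the same libraries summed *Cd74* ran in the reverse order, at 4178 CPM for young and 2323 CPM for old. These barcodes mix cell types, and the share of them with a class II UMI was 37.5% for young and 50.04% for old. The summed value is therefore no level of any 1 leukocyte type.

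All 9 class I genes were also at least 2-fold higher in old S3 cells, with a median of 4.58 (4.53 in Y-linked-only and 3.805 in early PT cells). *Psmb8* and *Psmb9*, subunits of the immunoproteasome that cuts peptides for class I, stood at 0.954 and 209.9 CPM and 0.564 and 84.7 CPM, 220.1-fold and 150.2-fold apart. *H2-K1*, a classical class I heavy chain, stood at 15.4 and 459 CPM, and *B2m*, its light chain, at 139.6 and 1126 CPM. *Nlrc5*, the class I counterpart of *Ciita*, stood at 0.0434 and 3.95 CPM. The peptide transporter genes *Tap1* and *Tap2* were 24-fold and 7.51-fold higher in old S3 cells.

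Counted per cell after thinning to 5000 UMIs, the median old S3 cell held 15 class II UMIs (quartiles 5 and 28) and the median young one 0. At least 1 class II UMI was left in 89.97% (exact Clopper-Pearson interval 88.1–91.7%) of old and 10.7% (9.35–12.1%) of young S3 cells. For class I the medians were 11 and 1 UMIs, and for the interferon-induced list 3 and 0. Old early PT cells had medians of 12, 13 and 4 UMIs for the same lists, close to those of old S3 cells. The class II distributions of the ages overlapped, with 111 old S3 cells (10.03%) and 1793 young ones (89.3%) at 0. The 90th percentile of young cells was 1, and the highest young cell held 21.

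**Figure D3:**
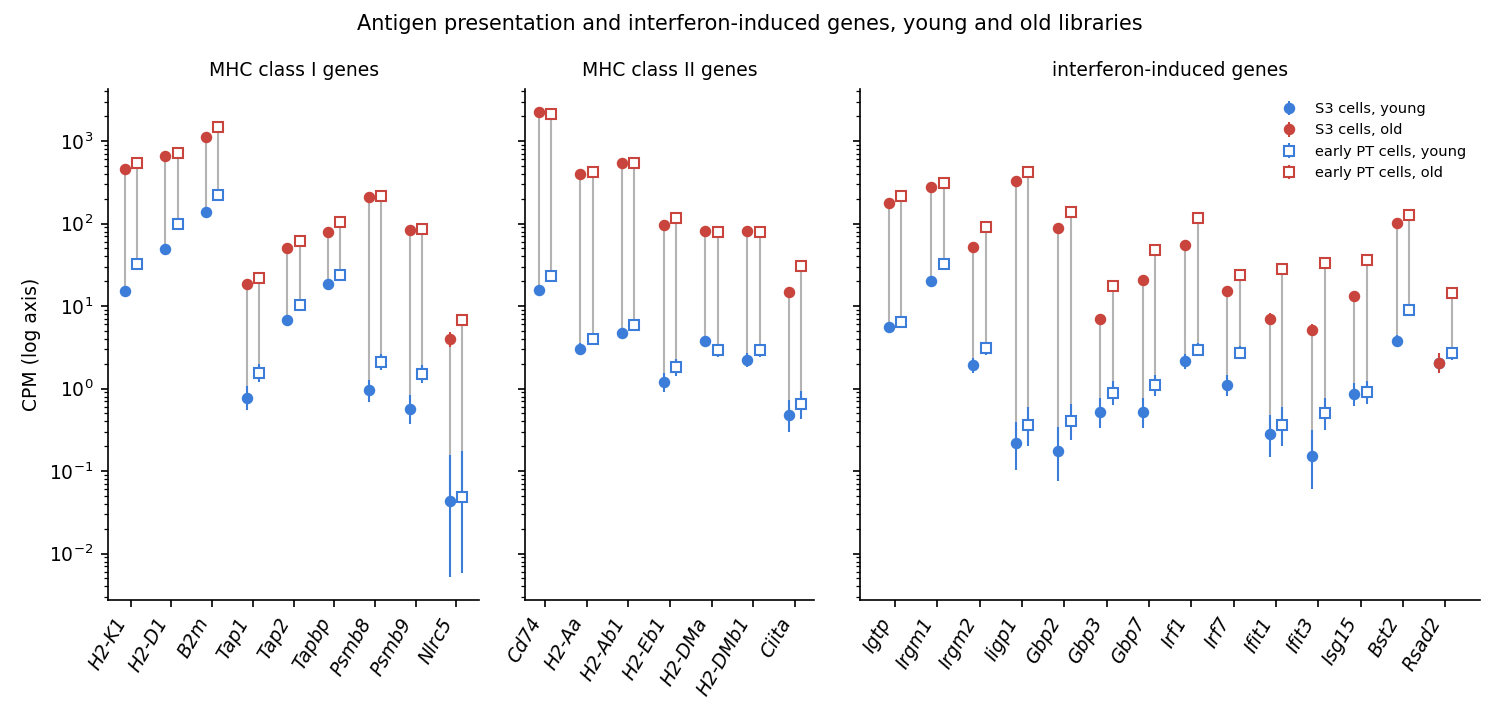
CPM (log axis) of MHC class I, MHC class II and interferon-induced genes in young (blue) and old (red) S3 cells (filled) and early PT cells (open), with exact Poisson 95% intervals and a grey line joining the ages. Each old value lies above its young one except that of *Rsad2* in S3 cells, where they overlap, and *Cd74* reaches 2243 CPM in old S3 cells.

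**Figure D4:**
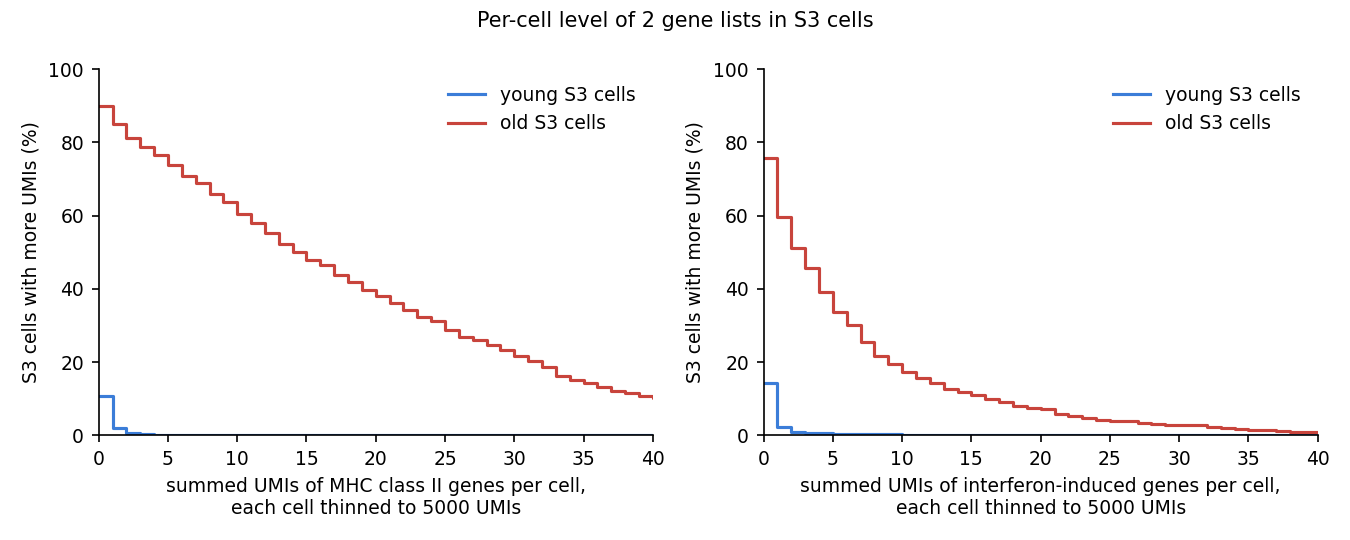
Share of young and old S3 cells (y axis, percent) with more summed UMIs of the class II list (left) or the interferon-induced list (right) than the number on the x axis, each cell thinned to 5000 UMIs. The old curves start at 89.97% and 75.8% of cells and the young ones at 10.7% and 14.3%.

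Of 14 interferon-induced genes, 13 were at least 2-fold higher in old S3 cells, with a median of 4.705 (4.64 in Y-linked-only and 5.18 in early PT cells). *Iigp1*, an immunity-related GTPase, stood at 0.217 CPM (0.104–0.399) in young and 325 CPM (318–332) in old S3 cells, a log2 ratio of 10.55 (9.67 to 11.61). *Gbp2*, a guanylate-binding protein, stood at 0.173 and 89.4 CPM, and *Irf1*, the factor that relays interferon gamma, at 2.15 and 55.2 CPM. *Iigp1* had UMIs in 4 young and 523 old S3 cells, so about as many old cells lacked as held it. Of the 99 *Irf1* UMIs of young S3 cells 57 were in 1 cell, and without it the log2 ratio was 5.86 in place of 4.68. *Irgm1*, *Irgm2* and *Igtp*, GTPases of the same family as *Iigp1*, stood at 20.03 and 276 CPM, 1.91 and 52.03 CPM and 5.55 and 176 CPM.

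Levels within the list were uneven. *Bst2* held 2604 UMIs in old S3 cells, against 2305 for *Gbp2*, while *Gbp3* and *Gbp7* stood at 6.98 and 20.5 CPM there. Among genes best known from type I interferon, *Ifit1*, *Ifit3*, *Isg15* and *Rsad2* were low in level. *Ifit1*, *Ifit3* and *Isg15* stood at 0.282 and 7.06 CPM, 0.152 and 5.16 CPM and 0.867 and 13.2 CPM in young and old S3 cells, with log2 ratios of 4.65, 5.09 and 3.93. In old early PT cells they stood at 28.4, 32.99 and 35.9 CPM, log2 ratios of S3 over early PT cells of −2.01, −2.68 and −1.44. *Rsad2* (viperin) was the gene of the list not past 2-fold, at 2.04 and 2.05 CPM in young and old S3 cells (log2 0.01 (−0.502 to 0.51)), while it stood at 2.67 and 14.6 CPM in early PT cells. Few cells carried these mRNAs: 5 old S3 cells held 50% or more of the *Ifit1* UMIs and 3 those of *Rsad2*, against 69 for *Iigp1*. *Cd74* and *Iigp1* each differed little between old S3 and old early PT cells, with log2 ratios of S3 over early PT cells of 0.09 and −0.37.

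The 250 bases before the start of 3 of these genes are shown to set the old S3 levels of *Gbp2*, *Irgm1* and *Irf1* beside the letters that interferon factors are known to bind. The interferon-stimulated response motif was searched as GAAANNGAAA and the gamma-activated site as TTCNNNGAA, on both strands, in RefSeq starts on GRCm38.p6, and capitals mark the matches.
*Gbp2* (GRCm38.p6 chr3:142620413-142620662, plus strand): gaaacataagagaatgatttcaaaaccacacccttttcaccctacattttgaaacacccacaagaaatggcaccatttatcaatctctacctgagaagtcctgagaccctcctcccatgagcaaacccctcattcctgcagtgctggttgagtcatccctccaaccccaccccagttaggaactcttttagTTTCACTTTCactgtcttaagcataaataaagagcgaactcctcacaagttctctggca
*Irgm1* (GRCm38.p6 chr11:48871421-48871670, minus strand): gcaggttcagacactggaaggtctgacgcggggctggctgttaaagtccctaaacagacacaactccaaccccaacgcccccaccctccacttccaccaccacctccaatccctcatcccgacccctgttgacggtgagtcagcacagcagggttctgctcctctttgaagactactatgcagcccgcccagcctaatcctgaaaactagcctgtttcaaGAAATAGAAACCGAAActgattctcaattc
*Irf1* (GRCm38.p6 chr11:53769764-53770013, plus strand): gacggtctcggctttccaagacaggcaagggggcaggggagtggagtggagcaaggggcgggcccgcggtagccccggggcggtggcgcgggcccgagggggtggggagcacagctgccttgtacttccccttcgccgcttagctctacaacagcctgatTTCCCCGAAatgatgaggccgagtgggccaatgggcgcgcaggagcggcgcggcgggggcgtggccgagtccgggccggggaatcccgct
GAAANNGAAA was found before the start of 11 of the 13 interferon-induced genes with an entry (84.6%), against 936 of 27025 genes (3.46%), and TTCNNNGAA before 5 (38.5%), against 8.13%. The list was made of genes known to be induced by interferon. These shares therefore follow from the choice of the list and say nothing about S3 cells. *Gbp2* holds 1 match of GAAANNGAAA, read on the opposite strand, *Irgm1* holds overlapping matches of GAAANNGAAA, and *Irf1* holds 1 match of TTCNNNGAA. Of 7 class I genes with an entry 1 held each motif, and of 4 class II genes 0 held either. A later *Irf1* start of the table (chr11:53770223-53770472), not shown, holds 0 matches of TTCNNNGAA. A match describes letters only and is not a binding site.

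Other leading genes at the old end belonged to the same families or to immunoglobulins. *Ubd*, a ubiquitin-like modifier, had 0 UMIs in young S3 cells, which allows up to 0.06503 CPM, and 37.02 CPM in old ones over 225 cells, so it was at least 569-fold higher. *Tgtp1*, *F830016B08Rik* and *Gm4841*, GTPases related to *Iigp1* whose reads may be shared, also had 0 UMIs in young S3 cells and stood at 21.1, 24.2 and 11.8 CPM in old ones. These were spread over 255, 134 and 101 cells. The immunoglobulin genes behaved otherwise. Of the 4067 *Ighg2c* UMIs of old S3 cells 4032 lay in 1 cell, of 25446 *Igkc* UMIs 23627, and of 1066 *Ighg2b* UMIs 988. Without that cell the log2 ratio of *Igkc* was 4.37 in place of 7.93, and *Igkc* UMIs remained in most old S3 cells (774 of 1107 with it), beside 24535 CPM in old leukocyte-marked barcodes. *Ighg1* was spread over 253 cells, at 11.9 CPM.

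Of 6 compared complement genes 3 were at least 2-fold higher in old S3 cells and 0 lower. *C4b*, a component of the classical complement pathway, stood at 8.97 CPM (8.13–9.88) and 178 CPM (173–183) (19.8-fold) and *Cfb*, complement factor B, at 21.3 and 47.9 CPM. *Cfi*, complement factor I, was the remaining one, at 1.45 and 3.64 CPM, and *C3* stood at 5.27 and 4.88 CPM. *Il34*, a ligand of the macrophage growth factor receptor, stood at 9.95 and 51.6 CPM, and *Cxcl1*, which attracts neutrophils, at 8.06 and 34.4 CPM. For *Il34* 169 old cells held 50% of the UMIs, so it was widespread. *Cxcl10*, the interferon-induced T cell chemokine, stood at 8.04 and 45.6 CPM, but 8 old cells held 50% of its UMIs. *Spp1* (osteopontin), at 80.8 and 309.6 CPM, rested on 12 cells in the same way, and *S100a6* and *Krt18*, also among the 6 of 11 compared injury genes past 2-fold, each on 1 old cell. Without the top cell of each library *S100a6* and *Krt18* stayed past 2-fold, with log2 ratios of 2.17 in place of 3.06 and 1.39 in place of 2.12. *Ccl28*, named above for the segment, was 6.04-fold higher in old S3 cells and found in 384 of them. *Cyp2a4*, a steroid hydroxylase of the cytochrome P450 family with near-identical relatives, stood at 65.5 and 337 CPM. It was the gene at least 2-fold higher in old S3 cells among the 6 compared genes listed as higher in female kidney, of which *Prlr* (28.7 and 4.57 CPM), *Slc7a12* and *Akr1c18* were lower. *Cyp2a4* went against this listing within S3 cells, being higher in Y-linked-only than in *Xist*-only cells, as given below.

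Some genes of S3 were lower in old S3 cells. *Slc22a19*, an organic anion transporter, stood at 29.5 CPM (28–31.2) in young and 1.43 CPM (1.01–1.98) in old S3 cells, 20.6-fold lower, and *Slc22a13*, a urate and nicotinate transporter, at 29.4 and 2.83 CPM. *Slc22a7* was 5.46-fold lower and *Mep1b* 5.95-fold lower in old S3 cells. Fewer cells carried these mRNAs, with *Slc22a19* in 265 young and 20 old S3 cells. Of the 15 S3 genes of the list, 6 were at least 2-fold lower (*Slc22a7*, *Slc22a13*, *Slc38a3*, *Cyp7b1*, *Slc7a12*, *Rnf24*) and 0 higher, with a median of −0.76. The 6 were again past 2-fold among Y-linked-only cells, and in early PT cells the median of the list was −0.23. Other genes of the list were not past 2-fold: *Slc5a8* and *Slc5a10* had log2 ratios of −0.77 and −0.76, while *Acy3* stood at 2600.5 and 3005 CPM and *Ggt1* at 1101 and 1003 CPM in young and old cells. The markers of the rule were lower in old S3 cells as well (*Slc7a13* log2 −0.46, *Slc22a30* −0.72, *Atp11a* −0.67), which is a description, since these UMIs chose the cells.

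Several of the leading lower genes lay in few cells. Among genes known as higher in male kidney 2 of 11 were lower in old S3 cells, *Serpina1f* and *Cyp7b1*. *Serpina1f*, a serine protease inhibitor gene known from male kidney, stood at 14.2 CPM over 94 young S3 cells and had 0 UMIs in old ones. Against the limit of 3 counts in old cells, 0.116 CPM, it was 122-fold lower, with a log2 interval bound nearest 0 of −6.63. *Mettl7a2* and *Methig1*, overlapping genes on chromosome 15 (chr15:100353200-100361840 and chr15:100353149-100384436), stood at 15.04 and 0.116 CPM and 3.45 and 0.0388 CPM, with log2 ratios of −7.02 (−9.296 to −5.46) and −6.47 (−11.79 to −3.98). *Akr1c18*, an enzyme that inactivates progesterone, and *Cyp7b1*, an oxysterol hydroxylase, stood at 7.61 and 0.155 CPM and 8.41 and 0.271 CPM. Only 5 and 3 young cells held 50% of the UMIs of *Akr1c18* and *Cyp7b1*. The hemoglobin genes *Hbb-bs*, *Hba-a1* and *Hbb-bt* had 88.9% to 91.02% of their young UMIs in 1 cell, and without it their log2 ratios lay between −4.14 and −3.19. *Sparc*, a matrix protein, and *Fabp4*, a fatty acid binding protein of endothelium and fat, rested on 4 and 3 young cells. Endothelial markers summed to 11.6 and 0.504 CPM in young and old S3 cells, and their part in these genes was not tested. *Gm33472*, an uncharacterized transcript, stood at 3.1 and 0.0388 CPM over 78 young cells.

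The lists of metabolism, protein uptake and transcription factors had medians near that of all genes with age. The median log2 ratio of old over young S3 cells was −0.01 for fatty acid oxidation and peroxisome genes, 0.06 for gluconeogenesis and fructose genes, −0.07 for protein uptake genes and −0.09 for transcription factors. Of these genes 1 was past 2-fold, *Cyp4a10* (a fatty acid omega-hydroxylase), at 65.5 and 19.9 CPM. *Slc34a3*, a phosphate transporter of the S1 and S2 list, was lower too, at 14.7 and 3.22 CPM. Of 17 detoxification genes compared, *Gsta2* was at least 2-fold lower, though not among Y-linked-only cells, and *Gsta4* was higher only through 1 cell, since its log2 ratio turned from 1.28 to −0.65 without that cell. *Gpx3*, the secreted glutathione peroxidase, stood at 5485 and 9565 CPM. The heat shock genes *Hspa1a* and *Hspa1b* stood at 105 and 18.7 CPM and 155 and 28.3 CPM, 5.62-fold and 5.46-fold lower in old S3 cells, and were lower in old early PT cells too (log2 −2.83 and −3.34). They are near-identical copies, and their reads may be split between them. The other immediate early and heat shock genes had log2 ratios from −0.69 to 0.69, apart from *Hspb1* (1.64).

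Within each library, S3 cells with Y-linked and no *Xist* UMIs were set against S3 cells with *Xist* and no Y-linked UMIs. The second set held 35 young and 28 old cells, and how many mice they came from is not known, so these values describe few cells. They also lay near the limit of the rule: *Xist*-only cells made up 27.5% of the 51 young and 23.2% of the 56 old S3 cells with exactly 3 marker UMIs. Of 8910 genes with at least 100 UMIs over both sets in each library, 110 (1.23%) were at least 2-fold higher and 242 (2.72%) at least 2-fold lower in the Y-linked cells in both libraries. With at least 5 marker UMIs per cell, 16 of the 110 and 59 of the 242 were again past 2-fold. At the lower end, *Prlr* (the prolactin receptor) had log2 ratios of −5.54 (−5.75 to −5.32) for young and −7.503 (−8.34 to −6.75) for old cells, and *Cyp4a14* (a fatty acid hydroxylase) of −5.32 (−5.58 to −5.06) and −8.96 (−9.94 to −8.12). Both are known as higher in female kidney. *Hao2*, a hydroxyacid oxidase, was the remaining gene of that list past 2-fold lower (−1.12 and −1.25). *Cyp2a4*, also on that list, went against its listing and was higher in Y-linked cells (1.17 and 1.38). Of the 9 compared genes known as higher in male kidney, 9 were higher in the Y-linked cells in both libraries and 5 at least 2-fold.

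The other lower genes included *Apoe* (−5.03 and −4.23), a lipid carrier, *Gsta2* (−3.48 and −4.14), a glutathione transferase, and *Acsl1* (−2.78 and −3.09), a long-chain acyl-CoA synthetase. Each of these was also lower in S3 than in early PT cells, with *Apoe* at 46.6 and 14.2 CPM against 210 and 139 CPM. *Fam13a*, *Prom1* (a membrane protein of progenitor-like tubule cells) and *Hpd* (tyrosine breakdown) followed the same pattern, with ratios from −3.62 to −2.697. *Wfdc2*, a secreted protein of epithelia, and *Igkc*, whose old UMIs lay mainly in 1 *Xist* cell, completed the 10. At the higher end, *Chst7*, a sulfotransferase gene on the X chromosome, stood at 42.8 and 35.8 CPM in Y-linked and 10.1 and 9.7 CPM in *Xist* cells. *0610031O16Rik*, *Snx31*, *Fkbp1b*, *Col6a6* and *Dcst1* had ratios from 1.83 to 2.59, and *Trac*, *S100a6*, *Trp53rkb* and *Shq1* completed the 10, with few UMIs in the *Xist* cells. The directions of *Trp53rkb*, *Dcst1*, *Shq1*, *S100a6*, *Gsta2*, *Cyp2a4*, *Acsm3*, *Trac*, *0610031O16Rik* and *Snx31* turned in 1 or both libraries under other choices of cells or markers, thinning or without 1 cell. The age difference held on both sides, since class II UMIs per thinned cell had a median of 14 in old Y-linked and 18 in old *Xist* cells and of 0 in both young sets.

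**Figure D5:**
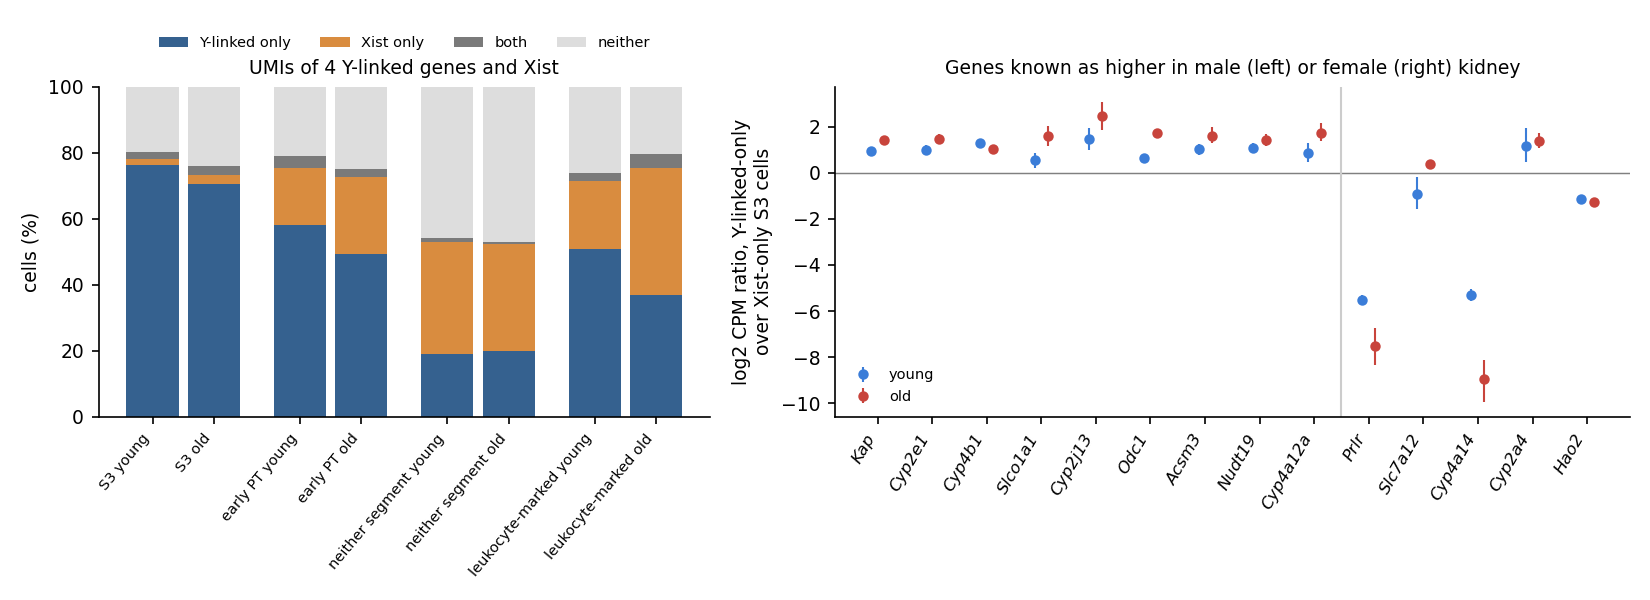
Left, share of cells (percent) with UMIs of Y-linked genes only, *Xist* only, both or neither in S3 cells, early PT cells, PT cells of neither segment and leukocyte-marked barcodes of each library. Right, log2 CPM ratio of Y-linked-only over *Xist*-only S3 cells for genes listed as higher in male or female kidney, with exact binomial 95% intervals. The male genes lie above 0 in both libraries and *Prlr* and *Cyp4a14* far below, while *Cyp2a4* of the female list lies above 0.

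Among S3 cells of one library, after thinning, the widest spread over cells belonged to *Malat1*, a nuclear RNA, with a variance over mean of 542 in young and 714 in old cells, against a median over 5032 genes of 1.09 and 1.10. *Kap* came next, with 135 and 98.3. Its thinned count ran from 131 UMIs at the 10th percentile to 734 at the 90th in young S3 cells and from 115 to 558 in old ones. The other named genes of this ranking were the ribosomal RNA-derived *Gm42418*, the mitochondrial *mt-Atp6*, *mt-Co3*, *mt-Co2*, *mt-Cytb* and *mt-Co1*, the actin-binding *Tmsb4x* and the immediate early gene *Jun*. Median mitochondrial shares were 4.798% and 4.01% in young and old S3 cells and 6.89% and 6.41% in early PT cells.

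The study concerns ILC2s and amphiregulin, so that gene, its receptor and related genes are given for S3 cells. *Areg* (amphiregulin) stood at 1.08 CPM (0.804–1.43) in young and 0.349 CPM (0.1595–0.662) in old S3 cells, on 50 and 9 UMIs, and at 494 and 116 CPM in leukocyte-marked barcodes. *Egfr*, the receptor, stood at 24.1 and 18.5 CPM in young and old S3 cells, and its partners *Erbb2* and *Erbb3* at 12.8 and 10.6 CPM and 21.1 and 18.6 CPM. *Hbegf*, a ligand of the same family, stood at 176 and 117 CPM, and *Egf* at 1.21 and 5.16 CPM, with 50% of the old *Egf* UMIs in 2 cells. *Cdh1* (E-cadherin) stood at 15.8 and 16.4 CPM and *Itgb1* (integrin beta 1) at 76.3 and 72.6 CPM. *Fn1* (fibronectin) had 28 UMIs in young and 22 in old S3 cells, and cells with *Vcam1* UMIs were left out by the rule. Of the alarmins that activate ILC2s, *Il33* stood at 0.282 and 0.6203 CPM, and *Tslp* and *Il25* had 0 UMIs in S3 cells of both libraries. *Madcam1* also had 0 UMIs, which in the young library allows up to 0.06503 CPM and in the old 0.116. Of 9 genes of this list compared with age, 1, *Egf*, was past 2-fold, and it was not past it among Y-linked-only cells.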

How the data were processed

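The authors aligned 10x 3′ v3.1 reads to mm10 and used Cell Ranger 3 to count UMIs (version from the submitters' processing notes), and the deposited matrices of 31053 genes hold these counts without normalization. From 15076 young and 12622 old barcodes, 11429 and 10232 passed the first filter (200 or more genes, mitochondrial share up to 20%), and the rule was applied to them. CPM is a gene's UMIs summed over cells, per 1000000 of their total. With 1 library per age no p-value was computed and no gene was called changed. Ratios of CPM have exact binomial 95% intervals, CPM exact Poisson and shares exact Clopper-Pearson ones. A gene with 0 UMIs was given the limit of 3 counts in ratios. PCR duplicates are removed by UMIs, but intervals do not cover differences between mice.

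Genes compared had at least 100 UMIs over the cells compared. Named genes were the 12 at each end by the smaller of the ratios in both libraries (S3 over early PT cells), the 12 at each end by the interval bound nearest 0 (old over young), the 10 at each end (Y-linked over *Xist* cells) and the 10 with the highest smaller variance over mean, after thinning cells to 5000 UMIs (seed 7), plus genes of the lists. The members, lists and rules were chosen with earlier results of these data known. A gene of the interferon-induced list is not reported here and was left out of its values. Leukocyte-marked barcodes had *Ptprc* UMIs and no PT call. Positions are GENCODE M21 on GRCm38, upstream sequences RefSeq on GRCm38.p6, matched by symbol. The letters AGAACA were searched as well.

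Tools were Matplotlib 3.10.9, pandas 2.3.3, NumPy 2.4.6, SciPy 1.17.1 and Scanpy 1.11.5 (Scrublet) in Python 3.11.15. The ranking was tested on simulated counts with no spread among cells or mice. That test therefore does not cover genes whose UMIs lay mainly in 1 cell. Alternatives were other UMI, mitochondrial and marker minimums, each marker left out, injured cells kept, doublets removed, means of each cell's CPM, abundant genes left out of the total, thinning, a minimum of 20 UMIs per gene, and Y-linked-only or *Xist*-only cells. *Atp11a* as the single marker, shared barcodes left out, and the top cell of each gene left out were chosen after seeing the data. The other measurements of the study were not analysed here.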

Additional observations from a re-analysis of the deposited data

Results flagged for a closer look

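For 9 genes the ratio of S3 over early PT cells was past 2-fold in opposite directions in the young and the old library. This difference between the libraries was not tested, since each is 1 library. Of these, 5 are genes of the urothelium and of cornified epithelia. *Upk3a*, *Upk1b* and *Upk1a*, uroplakins that plate the bladder and pelvis lining, had log2 ratios of −1.22, −1.67 and −1.83 in the young and 9.03, 6.05 and 5.01 in the old library. *Psca*, a surface antigen of such epithelia, had −1.37 and 5.19, and *Sprr1a*, a cornified envelope protein, −1.201 and 4.77. Without the cell with the most UMIs of each gene, the old ratios of *Upk3a*, *Upk1b* and *Upk1a* were 4.87, 4.75 and 3.07, and those in the young library moved to −0.15, −0.89 and −1.15. *Psca* and *Sprr1a* then had −0.83 and −0.69 in the young and 4.70 and 3.63 in the old library.

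*Krt18*, a simple epithelial keratin, had ratios of −1.28 in the young and 2.15 in the old library, and of −1.54 and 0.79 without its top cell. *Pla2g16*, a phospholipase, was the gene higher in the young and lower in the old library, with 1.598 and −1.35, and its values without the top cell were 1.61 and −1.39. *Gsn* (gelsolin) had −3.75 and 1.16, and *Nupr1*, a stress-induced regulator, −1.001 and 2.63. Both lost their opposite signs without the top cell, with *Gsn* at −0.69 in the old and *Nupr1* at 0.28 in the young library.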

How the results depend on the processing

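Of the counts and shares recomputed under the alternatives, 122 stayed within 1.5 times or within their counting interval and 48 moved. Removing doublets or shared barcodes, taking the mean of each cell's CPM, or leaving abundant genes out of the total moved 0 of them. The share of S3 cells among PT cells, 41.4% and 40.7% in the young and old library, was 39.8% and 38.5% with at least 2000 UMIs, 44.3% and 43.6% with at least 10000 UMIs, 44.1% and 43.5% with at most 10% mitochondrial UMIs, 39.5% and 36.3% with at least 5 marker UMIs, 36.5% and 34.1% with no *Atp11a*, 37.1% and 36.5% with no *Slc22a30*, 33.8% and 29.1% with no *Slc7a13*, 43.1% (young) with injured cells kept, 25.9% and 21.2% with *Atp11a* alone. The Y-linked-only share was 81.6% and 77.3% with at least 10000 UMIs, 79.5% and 74.03% with at most 10% mitochondrial UMIs, 81.1% and 75.6% with no *Slc7a13*, 83.1% and 78.3% with *Atp11a* alone, and the *Xist*-only share 0.889% and 1.11% with at least 5 marker UMIs, 0.962% and 1.19% with no *Atp11a*, 0.716% (young) with *Atp11a* alone. Thinning left fewer genes to compare and gave 111 higher and 227 lower genes in S3 over early PT cells, 126 and 99 in old over young and 49 lower genes in Y-linked over *Xist* cells, and a minimum of 20 UMIs gave 844 lower, 591 and 543, and 861 lower genes. Y-linked-only cells gave 312 lower genes in S3 over early PT cells, and *Xist*-only cells, which are few, 57 and 150, and 56 and 34 with age. The Y-linked over *Xist* count of lower genes was 101 with at least 5 marker UMIs, 85 without *Atp11a* and 98 without the top cell of each gene, which gave 245 higher genes.

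Direction turned in S3 over early PT cells for *Gsta4* (old, 0.77, Y-linked-only cells) and in *Xist*-only cells for *Rnf24* (young, −0.37), *Prlr* (old, 0.53), *Cyp4a14* (old, 1.799) and *Abcb1a* (young, 1.23). With age it turned for *Egf* (−0.47, at most 10% mitochondrial UMIs), *Gsta4* (−1.19 without *Atp11a* and −0.65 without the top cell) and *Rnf24* (2.52, *Xist*-only cells). In Y-linked over *Xist* cells it turned with at least 5 marker UMIs for *Trp53rkb* (young −0.77), *Dcst1* (old −0.88), *Shq1* (old −0.86) and *Gsta2* (young 0.200). It turned without *Atp11a* for *Trp53rkb* (young −0.83, old −0.96), *Dcst1* (old −1.02) and *Shq1* (old −1.06). It turned without *Slc22a30* for *Trp53rkb* (young −0.35, old −0.29). It turned without *Slc7a13* for *Trp53rkb* (old −0.0604), *Dcst1* (old −0.13) and *Shq1* (young −0.38). It turned with injured cells kept for *S100a6* (young −0.62). It turned after thinning for *Trac* (young −1.15), *S100a6* (young −1.18), *0610031O16Rik* (old −0.12), *Snx31* (old −0.74), *Trp53rkb* (young −1.28), *Dcst1* (young −0.89) and *Shq1* (young −0.32, old −0.22). It turned with *Atp11a* alone for *S100a6* (young −1.83), *Trp53rkb* (young −1.599, old −0.59), *Dcst1* (young −0.599, old −0.62), *Shq1* (young −1.52), *Acsm3* (young −0.046) and *Cyp2a4* (young −0.26). It turned without the top cell for *S100a6* (young −0.28). The cause was not tested. The other gene values were 3226 of 4637, 2614 of 3286 and 736 of 1024 within their counting intervals in the comparisons of segment, age and sex-linked reads.

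With 1 pooled library per age, differences between mice, batches and disease cannot be told apart from age, and the *Xist*-only values rest on 35 and 28 cells.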

Other observations

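Gene families around the named genes were counted after the results were known. All 3 Iroquois genes compared, *Irx1*, *Irx3* and *Irx5*, were at least 2-fold higher in S3 than in early PT cells in both libraries, where 1.78% of all genes were higher and 5.0% lower. Of 7 sodium and glucose cotransporter family genes (Slc5a), *Slc5a1*, *Slc5a8* and *Slc5a10* were higher and *Slc5a9* lower. Of 17 glutathione S-transferase genes 0 were higher and 5 lower, and of 13 genes of the Cyp2 family *Cyp2a4*, *Cyp2d9*, *Cyp2e1* and *Cyp2j11* were higher and *Cyp2d12* and *Cyp2d26* lower. With age, 5 of 5 compared guanylate-binding protein genes were at least 2-fold higher in old S3 cells, where 2.57% of all genes were higher and 1.96% lower, and of 15 organic ion transporter genes (Slc22a) 3 were lower and 0 higher. Of 16 aldehyde dehydrogenase genes, *Aldh1a1*, *Aldh1a7* and *Aldh3b2* were at least 2-fold higher in old S3 cells. *Aldh3b2* was past 2-fold only with its top cell (log2 1.01, and 0.72 without it).

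*Trac*, the constant region of the T cell receptor alpha chain, held UMIs in 313 young and 315 old S3 cells, at 9.54 CPM (8.67–10.5) and 19.7 CPM (18.02–21.5). In early PT cells it stood at 2.596 and 10.6 CPM, log2 ratios of S3 over early PT cells of 1.88 (1.57 to 2.19) and 0.89 (0.66 to 1.12). *Cd3e*, a chain of the same receptor complex, stood at 0.1301 and 1.71 CPM in young and old S3 cells, and the T and NK cell markers summed to 2.71 and 13.1 CPM. *Trac* stood at 86.6 and 503 CPM in leukocyte-marked barcodes. Reads of the 3′ kit do not show which start site gave these UMIs.

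The letters AGAACA were found in the 250 bases before the start of 18.2% of all genes with an entry. Among named genes they lay before 7 of 10 lower and 2 of 4 higher in old S3 cells. For S3 over early PT cells the counts were 0 of 6 higher and 2 of 10 lower genes. For Y-linked over *Xist* cells they were 2 of 8 higher and 3 of 8 lower genes. Of the lists, 1 of 10 S3 genes and 1 of 9 genes known as higher in male kidney held the letters. The 12 genes named as lower in old S3 cells include related hemoglobin genes and the overlapping *Mettl7a2* and *Methig1*, so they are not independent. Several sets were searched and named genes were chosen by their ratios, so the counts are a description.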
